A study of Drosophila melanogaster with 2 samples.

Results

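Mitochondrial ribosomal protein genes were taken as the protein-coding genes whose symbol begins with mRpL or mRpS, by name alone and without any measured value. There were 73 of them among 13968 protein-coding genes on the chromosome arms, 47 mRpL genes for the large subunit and 26 mRpS genes for the small subunit. The family itself was chosen with earlier results of these data known. Binding of the protein of the gene CG11723 of Drosophila melanogaster was profiled by chromatin immunoprecipitation and sequencing (ChIP-seq) in whole embryos of mixed sex aged 0 to 16 h. The single group was a transgenic line that stably expresses CG11723 with GFP at its C-terminus, precipitated with an anti-GFP antibody and represented by biological replicates 1 and 3. No untagged or input sample was analysed here, and signal of the tagged protein cannot be told apart from signal that any GFP precipitation would give at these promoters. A whole-embryo sample also averages over all its cell types.

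The mitochondrial ribosome translates the few messages of the mitochondrial genome, which in animals encode subunits of the respiratory chain and the ATP synthase. Its proteins are nuclear-encoded, made in the cytoplasm and imported, so the supply of a whole mitochondrial ribosome depends on many separate nuclear promoters. The small subunit reads the message and the large subunit joins the amino acids. Numbers up to 36 in mRpL names and up to 21 in mRpS names follow bacterial ribosomal proteins, and higher numbers belong to proteins first described in mitochondrial ribosomes.

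Sequence under 6 of the 16 bound regions is shown so that the strings counted further on can be read in it. Each line gives the summit of a region and 50 bp on each side, 5′ to 3′ on the strand of the named gene, from the RefSeq Release 6 assembly (dm6 coordinates). Capitals mark TTAATT or CAGTG, on either strand. The first 4 lines are the strongest regions for which sequence is given, mRpS6 holds both strings, and mRpS5 holds neither and is the only bound gene without a head-to-head neighbour. The strongest member region, that of mRpL41, is not shown and holds neither string, so the lines are not a sample of the 16.
mRpS23: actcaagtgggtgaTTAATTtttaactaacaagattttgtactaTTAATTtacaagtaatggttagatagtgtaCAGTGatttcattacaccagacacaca
mRpS10: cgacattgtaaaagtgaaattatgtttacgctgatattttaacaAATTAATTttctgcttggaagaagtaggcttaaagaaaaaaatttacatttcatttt
mRpL23: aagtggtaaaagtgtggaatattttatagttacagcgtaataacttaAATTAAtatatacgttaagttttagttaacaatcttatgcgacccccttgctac
mRpS7: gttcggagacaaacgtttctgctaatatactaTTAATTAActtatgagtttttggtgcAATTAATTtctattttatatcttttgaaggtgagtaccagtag
mRpS6: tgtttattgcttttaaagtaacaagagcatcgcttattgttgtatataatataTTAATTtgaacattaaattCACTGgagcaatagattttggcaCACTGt
mRpS5: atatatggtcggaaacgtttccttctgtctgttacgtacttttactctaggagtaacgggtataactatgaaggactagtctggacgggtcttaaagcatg
These windows lie at 2L:13835416-13835516 on the minus strand for mRpS23, 3R:15229486-15229586 on the plus strand for mRpS10 and 3L:2373532-2373632 on the minus strand for mRpL23. Those of mRpS7, mRpS6 and mRpS5 lie on the plus strand at 2L:10386452-10386552, 3L:4364409-4364509 and 3L:24537255-24537355.

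Of the 73 genes, 15 (20.5%, exact 95% interval 12.0 to 31.6) had a region of the final list within reach of a transcription start site (TSS). That list holds the 3869 regions kept by the irreproducible discovery rate (IDR) procedure on both replicates. They were the 3869 strongest of the pooled list, so a kept region need not be strong in each replicate. The region of mRpL37 had no overlapping region in replicate 1, and that of mRpS24 ranked 7334 there. A gene was counted when a region's summit lay within 500 bp of any of its TSSs. The same count over all protein-coding genes was 2092 of 13968 (15.0%), a share inside the interval of the 73. In the pooled list of 30000 regions before thresholding, 32 of the 73 genes (43.8%, 32.2 to 55.9) had a region at a TSS, beside 37.1% of coding genes. Among the genes with such a pooled region, 15 of 32 (46.9%, 29.1 to 65.3) had a region of the final list there, beside 2092 of 5188 coding genes (40.3%). Intervals cover counting error only, and genes are not replicates of the experiment.

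Small-subunit genes made up 9 of the 15, which is 34.6% of the 26 mRpS genes (17.2 to 55.7), and large-subunit genes 6, which is 12.8% of the 47 mRpL genes (4.83 to 25.7). The intervals overlap and the difference was not tested. Counting each region only for its nearest coding TSS left 4 genes of each subunit, and replicate 3 alone gave 13 mRpS and 12 mRpL genes. Genes numbered after bacterial proteins had 9 of 42 (21.4%, 10.3 to 36.8) and those with mitochondrial numbers 6 of 31 (19.4%, 7.45 to 37.5). Split by both, the first class had 5 of 14 small-subunit genes (12.8 to 64.9) and 4 of 28 large-subunit genes (4.03 to 32.7). The second had 4 of 12 small (9.92 to 65.1) and 2 of 19 large (1.30 to 33.1). The small-subunit share was higher in both, but these are the same 15 genes and the intervals overlap. By arm, 6 of 17 members were bound on 3L, beside 434 of 2739 coding genes, and 4 of 21 on 3R, beside 515 of 3421. On 2L it was 3 of 12, beside 419 of 2657, and on 2R 2 of 12, beside 375 of 2852. None of the 11 genes on X had one (0%, up to 28.5), beside 297 of 2196 coding genes on X (13.5%).

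A few members stood near the top of the ranking and most bound ones lower. The signal value deposited for each region, whose scale is not stated, ran from 88.8 to 901 over the 16 distinct regions of the 15 genes, with a median of 193 (quartiles 101.2 and 349). Over the 1823 IDR regions at protein-coding TSSs the median was 159 (112 and 253). The regions of mRpL41, mRpS23 and mRpS10 held ranks 23, 28 and 29 of the pooled list, and 16 of the 30 strongest regions lay at coding TSSs. Counted along the ranking, 3 of the 73 genes (4.11%, 0.856 to 11.5) were reached by the first 100 regions, beside 0.644% of coding genes. It was 7 (9.59%, 3.94 to 18.8) by 1000 regions, beside 5.38%, and 22 (30.1%, 19.9 to 42.0) by 6000 regions, beside 20.0%. The interval holds the coding share at 1000 regions and, only just, at 6000. Among the first 3 genes, the summits at mRpS23 and mRpS10 were nearer to a neighbour's TSS.

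**Figure D1:**
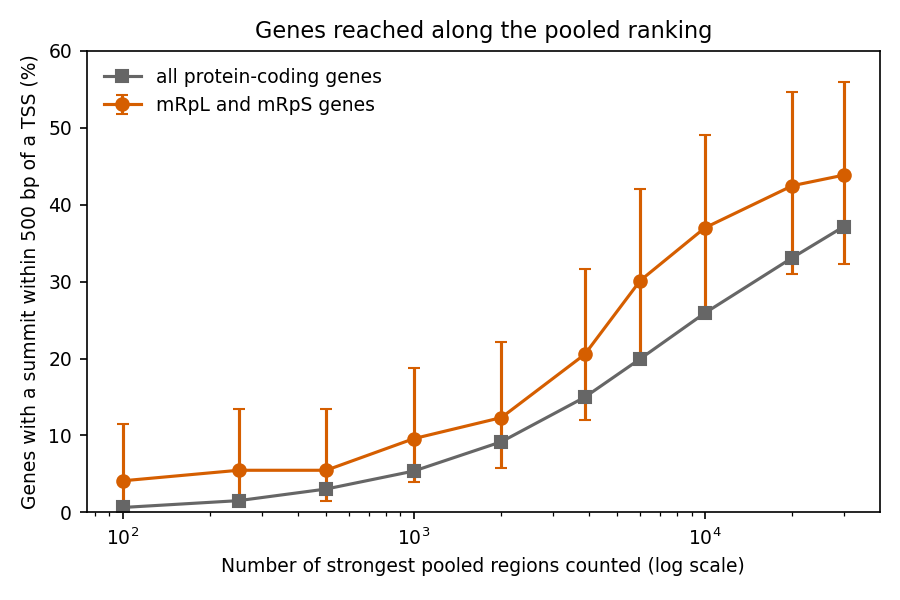
Percentage of genes with a summit within 500 bp of a TSS (vertical axis) when the strongest 100 to 30000 pooled regions are counted (horizontal axis, log scale), for the 73 mRpL and mRpS genes (circles, bars are exact 95% intervals) and all 13968 protein-coding genes (squares). The members reach 20.5% at the 3869 IDR regions and 43.8% at 30000, and coding genes 15.0% and 37.1%.

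Large-subunit genes were led by mRpL41, a protein of the large subunit without a bacterial counterpart. Its region had a signal of 901 in the pooled list, 342 in replicate 1 and 555 in replicate 3, and ranked 92 and 7 in the replicates. The summit was 139 bp upstream of the TSS in intergenic sequence. The same region lay within 500 bp of the TSS of lncRNA:CR44463, a non-coding RNA gene.

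mRpL23 encodes the counterpart of the bacterial protein at the exit of the peptide tunnel. Its region, 3L:2373435-2373779, had a signal of 530 pooled, 200 in replicate 1 and 332 in replicate 3. The summit lay 81 bp upstream of the nearest of its 3 annotated TSSs and, because another TSS lies farther upstream, within an annotated intron of mRpL23. Replicate 3 again ranked the region higher, at 62 against 395.

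mRpL20, whose bacterial counterpart takes part in early assembly of the large subunit, had a signal of 216 pooled (3L:13018006-13018248), 95.7 in replicate 1 and 122 in replicate 3. mRpL37, without a bacterial counterpart, had 102 pooled (3R:10783946-10784385) and 79.1 in replicate 3, and no overlapping region in replicate 1. The remaining bound large-subunit genes sat close to the end of the list. mRpL21 had 97.4 pooled (3L:19255033-19255472), 41.3 in replicate 1 and 59.0 in replicate 3. mRpL34 had 88.8, 15.1 and 73.8, and ranked 3863 of 3869.

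Among small-subunit genes, mRpS23, with no bacterial counterpart, had a signal of 870 pooled (2L:13835294-13835644), 472 in replicate 1 and 408 in replicate 3. mRpS10, whose bacterial counterpart lies in the head of the small subunit, had 846 pooled (3R:15229346-15229716), 406 in replicate 1 and 418 in replicate 3. In both genes the replicates were close, with ranks of 29 and 26 for mRpS23 and 49 and 25 for mRpS10. The next small-subunit region, that of mRpS7, was well below them in the pooled list.

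mRpS7, a protein that in bacteria starts assembly of the small-subunit head, had 288 pooled (2L:10386421-10386691), 186 in replicate 1 and 103 in replicate 3. mRpS2 had 275 pooled (2L:4850475-4850704), 110 in replicate 1 and 161 in replicate 3. mRpS5, whose bacterial counterpart bears on the accuracy of decoding, had 207 pooled (3L:24537025-24537500), 120 in replicate 1 and 95.6 in replicate 3. Its summit lay 58 bp upstream of the nearest TSS and in an annotated 5′ UTR of the same gene. mRpS7 and mRpS5, with one region of mRpS26, were the member regions that ranked higher in replicate 1, at 462 against 984 and 1074 against 1128 for the first pair.

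mRpS26 carried 2 overlapping IDR regions, the stronger at 3L:18106094-18106533 with 178 pooled, 80.2 in replicate 1 and 90.7 in replicate 3, and the weaker with 93.4, 43.3 and 21.6. mRpS22 had 134 pooled (3R:27916470-27916909), 48.8 in replicate 1 and 86.2 in replicate 3. mRpS6, the counterpart of a bacterial protein of the small-subunit platform, had 117 pooled (3L:4364358-4364537), 54.9 and 58.0. mRpS24 had 90.0 pooled (3R:24163583-24164022), 38.3 in replicate 1 and 50.6 in replicate 3. mRpS22 and mRpS26 have no bacterial counterpart. All of these regions ranked higher in replicate 3 except the weaker one of mRpS26.

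**Figure D2:**
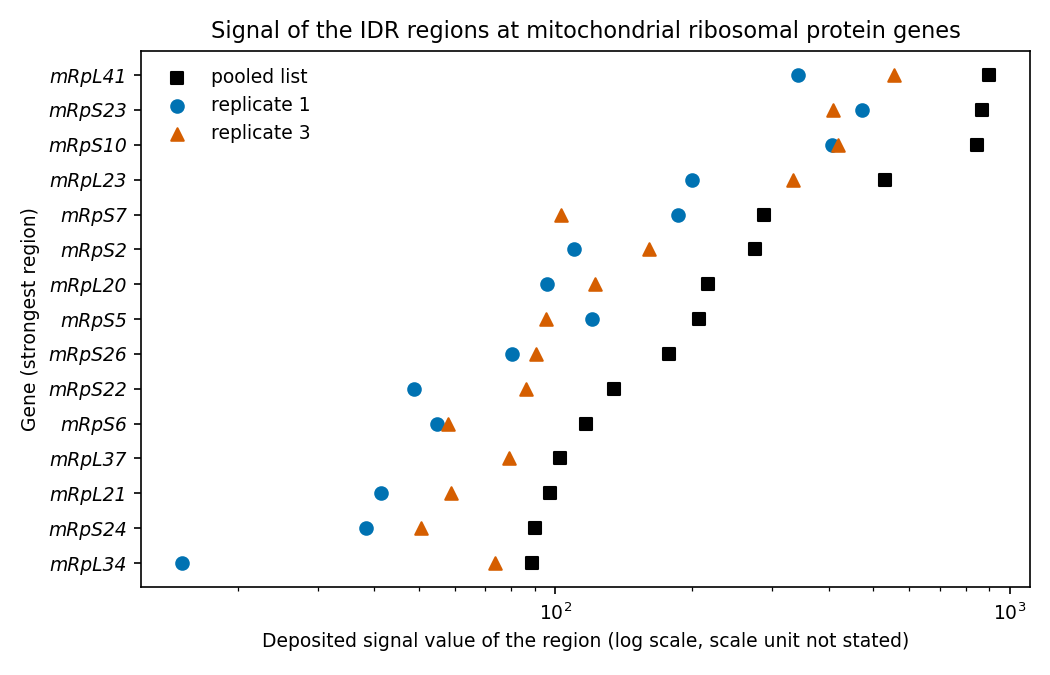
Deposited signal value (horizontal axis, log scale) of the strongest IDR region at each of the 15 bound genes in the pooled list (squares), replicate 1 (circles) and replicate 3 (triangles). mRpL41, mRpS23, mRpS10 and mRpL23 lead in all 3 lists, and mRpL37 has no replicate 1 point.

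Most member regions ranked higher in replicate 3 than in replicate 1. Of the 15 regions present in both replicate lists, 12 (80.0%, 51.9 to 95.7) had a better rank in replicate 3. Over IDR regions at coding TSSs it was 901 of 1651 (54.6%), a share inside the interval of the 15. Taking the 3869 strongest regions of each replicate alone, 25 of the 73 genes (34.2%, 23.5 to 46.3) had one at a TSS in replicate 3, beside 17.5% of coding genes, and 14 (19.2%, 10.9 to 30.1) in replicate 1, beside 14.3%. All 15 IDR genes were among the 25 of replicate 3 and 9 of them among the 14 of replicate 1, where the shares over all 2092 coding genes with an IDR region were 84.6% and 74.5%. Between replicates, the signal had a Spearman's rho of 0.89 over the 15 member regions and 0.52 over the 1651, as a description across regions of the same 2 libraries. The coding shares in single replicates cover genes of any promoter arrangement, and none is given for head-to-head genes alone. The sequencing depth of the samples is unknown here, so a part of depth in the differences between replicates was not tested.

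Most of the bound promoters were shared with a gene on the opposite strand. Of the 16 member regions, 14 (87.5%, 61.7 to 98.4) had another protein-coding TSS within 500 bp of the summit, beside 562 of 1823 IDR regions at coding TSSs (30.8%). In all 14 the partner lay on the opposite strand, head to head with the member, and the summit fell between both TSSs, for mRpL23 only by the nearest of its 3 TSSs, since its TSS farthest upstream lies beyond the summit. For 8 of these 14 the summit was nearer to the partner, at mRpS10 by 128 against 129 bp. Whichever TSS was nearer, none of the 14 regions can be told apart from one of the neighbour. Counting each region only for its nearest coding TSS left 8 members.

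The partners have varied roles. The region of mRpS23 lay 394 bp upstream of its TSS and 98 bp from that of CenG1A, an Arf GTPase-activating protein. That of mRpS10 lay 129 bp from its TSS and 128 bp from that of Art3, an arginine methyltransferase. mRpS7 shared its region with Cdk1, the mitotic kinase, 160 bp and 240 bp away. mRpS2 shared with Mon1, a factor of endosome maturation, and the summit was 171 bp from mRpS2 and 51 bp from Mon1.

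mRpL20 shared with Icmt, a methyltransferase of prenylated proteins (244 and 155 bp), and mRpL21 with rept, an ATPase of chromatin remodelling complexes (192 and 87 bp). mRpL34 shared with Dg, which encodes dystroglycan (186 and 198 bp), and mRpS24 with Apc2, a component of Wnt signalling (258 and 163 bp). mRpS6 shared with Cip4, a membrane-bending protein (91 and 357 bp). The partners of mRpL23, mRpS22 and mRpS26 were CG9004, CG5003 and CG13698. Only mRpL41 and mRpS5 had no other coding TSS in the window.

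**Figure D3:**
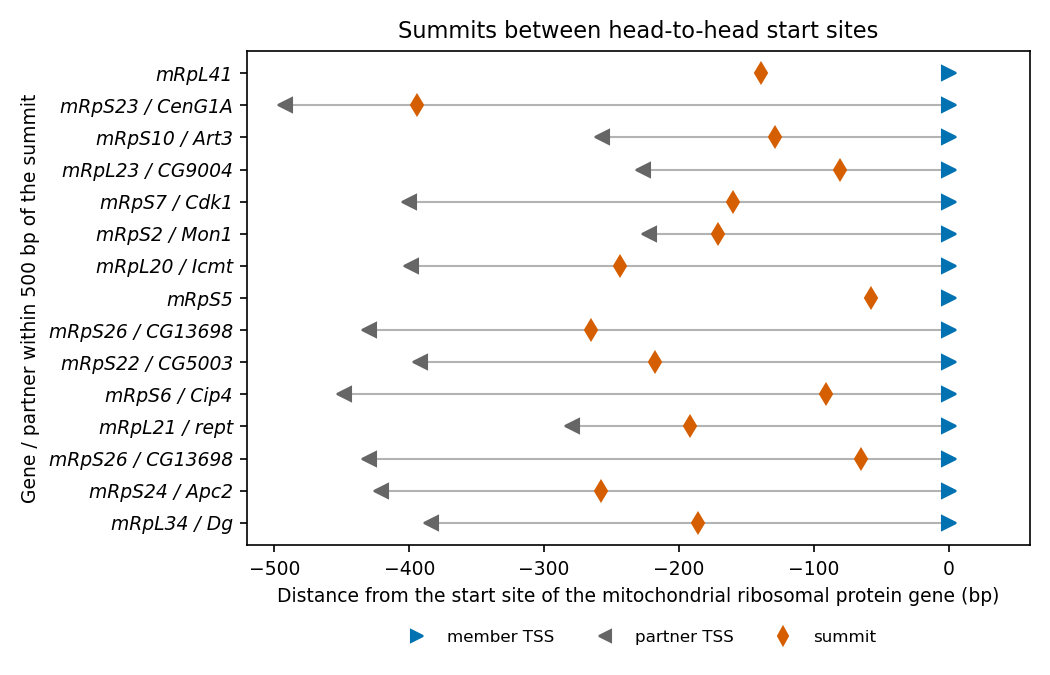
Position of 15 of the 16 IDR summits (diamonds, that of mRpL37 is not drawn) relative to the TSS of the mitochondrial ribosomal protein gene (right-pointing triangles, at 0) and to the partner's TSS on the opposite strand (left-pointing triangles), in bp. The 15 summits lie 58 to 394 bp upstream of the member, and 13 lie between both TSSs.

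Head-to-head arrangement is common in this gene family, bound or not. With a coding TSS on the opposite strand at most 1000 bp upstream as the definition, 58 of 73 members (79.5%, 68.4 to 88.0) were head to head, beside 5052 of 13968 coding genes (36.2%). Of the 58, 14 (24.1%, 13.9 to 37.2) had an IDR region at a TSS, beside 23.7% of head-to-head coding genes. Of the other 15 members, mRpS5 alone had one (6.67%, 0.169 to 31.9), beside 893 of 8916 coding genes without that arrangement (10.02%). Both intervals hold the share of coding genes. The gap between the 2 TSSs had a median of 395.5 bp (quartiles 282 and 428) at the 14 bound members. At the 44 others it was 230 bp (62.3 and 416.5). The quartile ranges overlap, the difference was not tested, and no gap of head-to-head coding genes is given beside it.

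**Figure D4:**
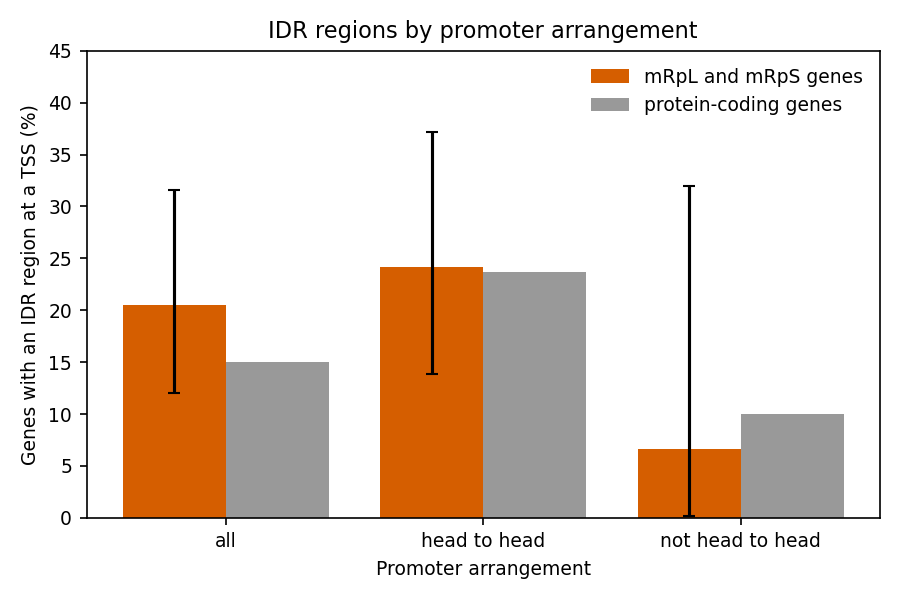
Percentage of genes with an IDR region within 500 bp of a TSS (vertical axis) among all genes, head-to-head genes and the rest, for mRpL and mRpS genes (orange bars, error bars are exact 95% intervals) and protein-coding genes (grey bars). The members stand at 20.5%, 24.1% and 6.67%, and coding genes at 15.0%, 23.7% and 10.02%.

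All 16 member summits lay upstream of the member's nearest TSS, at a median of -165.5 bp (quartiles -224.5 and -88.5). Over IDR regions at coding TSSs, placed by their nearest coding TSS, 81.2% were upstream and the median was -101 bp. These shares and medians are not measured alike, since 8 member regions were nearer to the partner. The 14 summits between both TSSs are upstream of the member by that position. Those of mRpL23 and mRpS5 lie downstream of another annotated TSS of the same gene. Replicate summits moved little, by a median of 14 bp in replicate 1 (15 regions) and 37.5 bp in replicate 3 (16 regions). No member had an IDR summit inside its gene body outside the 500 bp window. Many member genes are short and leave little gene body outside that window, so this count was nearly fixed in advance. No share of coding genes is given beside it.

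The bound windows were poor in G and C. The 16 summit windows, with 50 bp on each side, had a median GC content of 29.7% (quartiles 28.5 and 32.2), beside 35.6% (28.7 and 43.6) over the 1823 coding promoter windows. Among promoters, taken as the 250 bp before and 50 bp after each gene's annotated start, the median was 32.0% for the 15 bound members, 35.7% for the 58 others and 38.0% for coding genes.

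Of 12 promoter strings searched on both strands, 7 were in none of the bound windows and 5 were in 1 to 7 of them. The DNA replication-related element (DRE), TATCGATA, which the factor Dref binds, was in 0 of the 16 windows and 3.35% of the 1823, and its core TCGATA, which the full DRE contains, in 0 and 9.38%. In whole promoters the DRE was more frequent among members than among coding genes, at 15 of 73 (20.5%) beside 9.36%, and its core at 36 of 73 (49.3%) beside 27.7%. The core was in 5 of the 15 bound and 31 of the 58 other member promoters, which makes 33.3% and 53.4%. Of the promoters of coding genes with an IDR region, 666 (31.8%) held the core. The difference between bound and other members was not tested. In these windows and promoters a match says only that the letters are present, on either strand.

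GAGAG was in 0 of 16 windows beside 11.8% of coding promoter windows, Motif 1 in 0 beside 0.658%, the E-box CACGTG in 0 beside 1.10%, and the NRG element, here TTACATAA with C or T in the fourth place and A or G in the fifth, in 0 beside 2.30%. CAGTG was in 3 windows (18.8%), those of mRpS23, mRpS6 and the weaker region of mRpS26, beside 21.4%, and the longer ACAGTGG in 0 beside 3.07%. The TATA box TATAAA was in 4 (25%) beside 19.9%, an Initiator (TCAGTT with G or T in the fourth place and T or C in the last) in 2 (12.5%) beside 22.9%, and TGCGCA, part of the NRF-1 site, in 1 (6.25%) beside 2.58%. Runs of A and T, searched as AAAAAA and, for alternating letters, as ATATAT besides TATATA, were in 7 (43.8%) beside 35.5%.

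The string TTAATT, read on either strand, stood in 12 of the 16 windows (75%), beside 369 of 1823 coding promoter windows (20.2%). These letters were chosen after the member windows had been read, so the count describes how they were picked and carries no test. Of the coding promoter windows with a GC content within the members' quartiles, 84 of 255 (32.9%) held it, and of the member windows in that range 6 of 8. Windows without it were those of mRpL41, the strongest member region, mRpS5, mRpS24 and the weaker region of mRpS26. Over the 12 windows that held it, the centre of the nearest copy lay a median of 17 bp from the summit (quartiles 5 and 28.5), from 0.5 bp in mRpL23 to 46.5 bp in mRpS22.

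The string was also counted in member regions and promoters that had no part in that choice. Of the strongest pooled regions at the 17 members with a pooled but no IDR region, 2 (11.8%, 1.46 to 36.4) held TTAATT, beside 348 of 2683 such regions of coding genes (13.0%). Those member windows had a median GC content of 37.6%, and those of coding genes 43.6%. In promoters, TTAATT was in 31 of the 58 members without an IDR region (53.4%), beside 43.1% of coding genes. The bound members' promoters overlap the windows that were read and are not counted. Of the coding promoter windows among the 100 strongest regions 27.1% held it, and of those ranked below 2000 it was 16.5%. The median GC content of these windows was 33.2% and 37.6%. Both sets include member windows that had been read when the string was picked.

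Of the 58 members without an IDR region at a TSS, 9 (15.5%, 7.35 to 27.4) had a pooled one past the list's end and up to rank 7738, beside 9.30% of the 11876 such coding genes, a share inside the interval. The nearest were mRpL35 (rank 3972, signal 86.8), mRpL4 (4327, 81.5), mRpS16 (4450, 79.9) and mRpL19 (4754, 75.9). They were followed by mRpL32 (5082), mRpS25 (5193), mRpL17 (5289), mRpL27 (6692) and mRpS18B (7083). The last member inside the list, mRpL34, had 88.8, so the signals on either side of its end differed by little.

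In a single replicate, 15 of these 58 members (25.9%, 15.3 to 39.0) had one of the 3869 strongest regions at a TSS, beside 8.84% of coding genes without an IDR region there. The coding share covers genes of any promoter arrangement, and none is given for head-to-head genes alone. Head-to-head genes were 79.5% of all 73 members and 36.2% of coding genes. The difference in shares of strong regions was not tested, and 10 of the 15 came from replicate 3. Those of replicate 3 were mRpL24 (rank 358), mRpL32 (1330), mRpS31 (2224), mRpS25 (2469), mRpL4 (2735), mRpL18 (2758), mRpL35 (2785), mRpL3 (2896), mRpS18B (3318) and mRpS17 (3746). Those of replicate 1 were mRpL53 (2281), mRpS16 (3183), mRpL19 (3375), mRpL11 (3387) and mRpL47 (3529). None was among the strongest of both replicates.

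No region at a TSS was found for 23 members (31.5%, 21.1 to 43.4) in the pooled list or either replicate list, beside 6245 of 13968 coding genes (44.7%). They were 17 large-subunit genes, among them mRpL10, mRpL13, mRpL15 and mRpL16, and 6 small-subunit genes, mRpS9, mRpS14, mRpS18A, mRpS18C, mRpS34 and mRpS35. For the 58 members without an IDR region at a TSS, the nearest IDR summit lay at a median of 9465 bp (quartiles 3563 and 17280). mRpL2 and mRpL33 came closest, at 692 and 696 bp.

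Of 47 other genes of mitochondrial gene expression, 5 (10.6%, 3.55 to 23.1) were bound at a TSS in the IDR list, an interval that holds the 15.0% of coding genes. SLIRP2, an RNA-binding protein of the SLIRP family, was the strongest, with a signal of 618 (rank 92 pooled, 129 in replicate 1 and 71 in replicate 3). SLIRP1, of the same family, had 155, mtSSB, the mitochondrial single-stranded DNA-binding protein, 146, ArgRS-m, the mitochondrial arginyl-tRNA synthetase, 108, and mTerf5, a transcription terminator family protein, 105.

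By role, 2 of 8 RNA processing genes, 2 of 11 genes of mitochondrial DNA replication and transcription, 1 of 15 aminoacyl-tRNA synthetases, 0 of 10 translation factors and 0 of 1 membrane insertion genes were bound. The intervals were wide, 3.19 to 65.1% for RNA processing genes and 0 to 30.8% for translation factors. The interval of each role held the 15.0% of coding genes. Neither tko nor bonsai, mitochondrial ribosomal protein genes under other symbols, had a region in the pooled list at a TSS. SLIRP2 shared its region with Mkk4, SLIRP1 with anox, ArgRS-m with CG17816 and mTerf5 with Non3.

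Genes of the cytoplasmic ribosome, counted in the same way, gave different values. Of 88 genes whose symbol begins RpL or RpS, 64 were bound at a TSS by this count (72.7%, 62.2 to 81.7), and the interval does not overlap that of the mitochondrial genes (12.0 to 31.6). Their 71 regions had a median signal of 241 (quartiles 166 and 348) and at most 671. The regions at mRpL41, mRpS23 and mRpS10 exceeded all of them, and those at mRpS23 and mRpS10 were nearer to a neighbour's TSS. Of the 71 regions, 29 (40.8%, 29.3 to 53.2) had a second coding TSS in the window, beside 14 of 16 at the mitochondrial genes. Of the 88 genes, 52 (59.1%) were head to head. No test of these differences was made.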

How the data were processed

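The authors deposited narrowPeak region lists on dm6. Per the deposited file notes, each replicate's list came from its alignments and a further input that the notes do not describe, the pooled list from both alignments and the same input, and the IDR list from those 3 lists. Aligner, caller and threshold: not given in the sources used here. Each deposited signal score and −log10 q-value is the authors' own for that region, and the −log10 q-value, which is capped, was not used. The IDR list was checked to be the 3869 strongest regions of the pooled list, and no region ended past its arm. Lists on dm3 were not used. Depth is unknown.

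Genes came from Ensembl release 115 (BDGP6.54) and sequence from RefSeq Release 6, with the same arm for 73 of 73 members. Position was start + summit offset + 1, and replicate values are those of the overlapping region (1 bp) with the closest summit. Head-to-head partners lay at most 1000 bp upstream. Intervals are Clopper-Pearson (scipy 1.17.1, Python 3.11.15). No test was run: there is 1 group, and regions and genes are not replicates. Region assignment and the motif search were tested on simulated data.

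The members, gene lists and 12 motifs were chosen with earlier results of these data known, and TTAATT after the member windows were read. Named are all members with an IDR region, those ranked up to 7738, those strong in 1 replicate, genes sharing a region, and related genes with an IDR region. The partner at 1 shared region is not reported here. Of the related names, 3 were not found in the annotation. Sequence was considered for the 10 strongest members outside arm 2R, and 6 are printed. Alternatives changed the TSS window, position, assignment, list length, motif window, background and replicates.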

Additional observations from a re-analysis of the deposited data

How the results depend on the processing

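Of the 60 alternative values, 35 stayed close to the main value (a count within 1.5 times), 25 moved and 0 reversed. Every alternative median position was labelled as moved, even -162 bp in replicate 3 alone beside -165.5 bp in the main setting. The 15 bound members became 14 to 25 when 1 replicate was left out (25 in replicate 3 alone), 9 in the 1934 IDR regions of highest signal and 8 when a region counted only for its nearest coding TSS. Large-subunit genes, 6 in the main setting, ranged from 7 to 12 with 1 replicate left out and were 3 in the 1934 regions, and small-subunit genes went from 9 to 4 with the nearest TSS only. The share among members with a pooled region, 46.9%, was 28.1% in the 1934 regions and 20.5% over all members. Related genes went from 5 to 3 in the 1934 regions. The median signal was 156 with a 1000 bp window and 288 in the 1934 regions, and 73.8 to 103 in single replicates, which have their own scales. The median position was -129 bp and -178.5 bp with windows of 200 and 1000 bp, -160 bp in the 1934 regions, -154 bp from region midpoints, and -162 to -161 bp in single replicates. CAGTG, in 3 windows, was in 1 in the 1934 regions, in 7 and 0 with windows of 100 and 25 bp to each side, and in 4 to 5 in single replicates. The DRE core, in 0, was in 2 with 100 bp and in 0 to 1 in single replicates. Causes were not tested. Depth, and with it the smallest detectable signal, is unknown, and the 2 replicates allow no estimate of spread beyond their own difference.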

Other observations

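Some members had regions in a replicate and none in the pooled list. The region at mRpL24 ranked 358 of 30000 in replicate 3 (signal 176, summit 130 bp upstream of the TSS), while replicate 1 had no region at this TSS and the nearest pooled summit lay 14625 bp away. mRpL3, mRpL11, mRpL44 and mRpS11 had regions in both replicates and none in the pooled list at a TSS. For mRpL11 the ranks were 3387 and 4575 and the nearest pooled summit lay 13771 bp away, and for mRpL3 they were 4866 and 2896 and the distance was 20276 bp. Of the 49 members with a replicate region at a TSS, 18 (36.7%, 23.4 to 51.7) had no pooled one there, beside 2535 of 7552 coding genes (33.6%). Of the 3869 strongest regions, 2.56% in replicate 1 and 7.39% in replicate 3 overlapped no pooled region. The cause was not tested.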
